A study of Mus musculus with 8 samples.

Results

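The epidermal growth factor (EGF) receptors, their ligands and the receptor antagonist Lrig1 were followed through bulk RNA-seq of mouse esophageal epithelium sorted by Cyto-ID, a dye that collects in autophagic vesicles. The set is a fixed list of 10 genes: the receptors Egfr, Erbb2 and Erbb3, the ligands Areg, Ereg, Hbegf, Tgfa, Btc and Epgn, and Lrig1. All 10 were found among the 55276 gene symbols of the count table, and all 10 were among the 17344 genes that passed the filter on low counts. The members held 13 to 19381 counts per library.

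The mice were C57BL6 animals of 14 to 15 weeks with no genetic change named in the labels, whose treatment field holds only the Cyto-ID fraction. Epithelium was peeled from the muscle and dissociated with dispase and trypsin, and live cells positive for integrin beta-1 were sorted into a Cyto-ID Low and a Cyto-ID High fraction. Each of 4 animals, Female1, Female2, Male1 and Male2, gave 1 library of each fraction, and values of a fraction are listed below in that order. Library totals were 26285150 to 29301054 counts. Both fractions are named basal in the protocol. The summed level of 12 basal keratinocyte markers was 22497 to 26895 CPM (counts scaled to equal library size, with TMM factors) in Low and 2888 to 4589 CPM in High, and that of 12 suprabasal markers was 10205 to 27653 CPM in Low and 146629 to 247817 CPM in High. All 12 basal markers were lower in High and 11 of the 12 suprabasal markers higher, so every comparison below is also a comparison of libraries with different shares of basal and suprabasal transcripts. In bulk RNA a change in the number of cells of a type and a change of RNA per cell cannot be told apart.

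ErbB receptors are tyrosine kinases of the cell surface that signal as pairs. Egfr binds all the ligands followed here, Erbb2 has no known ligand and serves as a partner, and Erbb3 has a weak kinase and binds neuregulins. The ligands are made as membrane-bound precursors and released by ADAM proteases, after which the receptors drive the Ras-ERK and PI3K-Akt pathways. Lrig1 is a transmembrane protein that promotes the removal of ErbB receptors and marks quiescent progenitors in several epithelia. In stratified epithelia the pathway is known for basal cell proliferation, migration and wound repair.

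Each ligand carries an EGF-like repeat, the stretch that docks on the receptor and that makes these genes a family. The coding sequence of the repeat is shown for 5 ligands, from the first to the last of its 6 cysteine codons, which are in capitals. The sequences run 5′ to 3′ in GENCODE M21 transcripts on GRCm38. The stretch lies on 2 exons in each gene, at chr5:91143614-91144364 on the plus strand for Areg, chr5:91088496-91089111 on the plus strand for Ereg, chr6:86263200-86269960 on the plus strand for Tgfa, chr5:91362421-91366197 on the minus strand for Btc and chr5:91031152-91032237 on the plus strand for Epgn.
Areg: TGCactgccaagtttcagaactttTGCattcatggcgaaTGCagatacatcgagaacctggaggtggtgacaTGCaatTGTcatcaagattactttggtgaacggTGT
Ereg: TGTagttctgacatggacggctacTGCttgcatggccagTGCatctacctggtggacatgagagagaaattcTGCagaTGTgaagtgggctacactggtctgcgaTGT
Tgfa: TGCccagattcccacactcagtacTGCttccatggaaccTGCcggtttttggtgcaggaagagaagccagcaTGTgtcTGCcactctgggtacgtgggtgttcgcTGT
Btc: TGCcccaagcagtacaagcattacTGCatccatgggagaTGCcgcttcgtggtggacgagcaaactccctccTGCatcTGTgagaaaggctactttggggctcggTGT
Epgn: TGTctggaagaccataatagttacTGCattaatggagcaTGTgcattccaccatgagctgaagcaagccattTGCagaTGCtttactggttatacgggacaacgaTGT
All 5 stretches had 36 codons and the same spacing of the cysteine codons. The stretches were found by a search that fixed the 6 cysteines and fixed or narrowly limited their spacing. This likeness was thus largely set in advance, and nothing about the direction of change was read from it. Hbegf, which also rose, was not among the 5 shown.

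With Cyto-ID High set against Low, 7 of the 10 genes were higher, 2 were lower and 1, Egfr, did not pass (quasi-likelihood test of edgeR, threshold 0.05 on the adjusted p). The 7 were Erbb2, Erbb3, Areg, Ereg, Hbegf, Tgfa and Btc, and the 2 were Lrig1 and Epgn. Over all tested genes 48.7% passed in either direction, 23.4% of them higher and 25.3% lower as shares of the genes tested, so a call by itself is common in this comparison. The CPM of the 2 fractions did not overlap for 8 of the 10 members, Egfr and Epgn being the others, beside 48.6% of all tested genes.

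**Figure D1:**
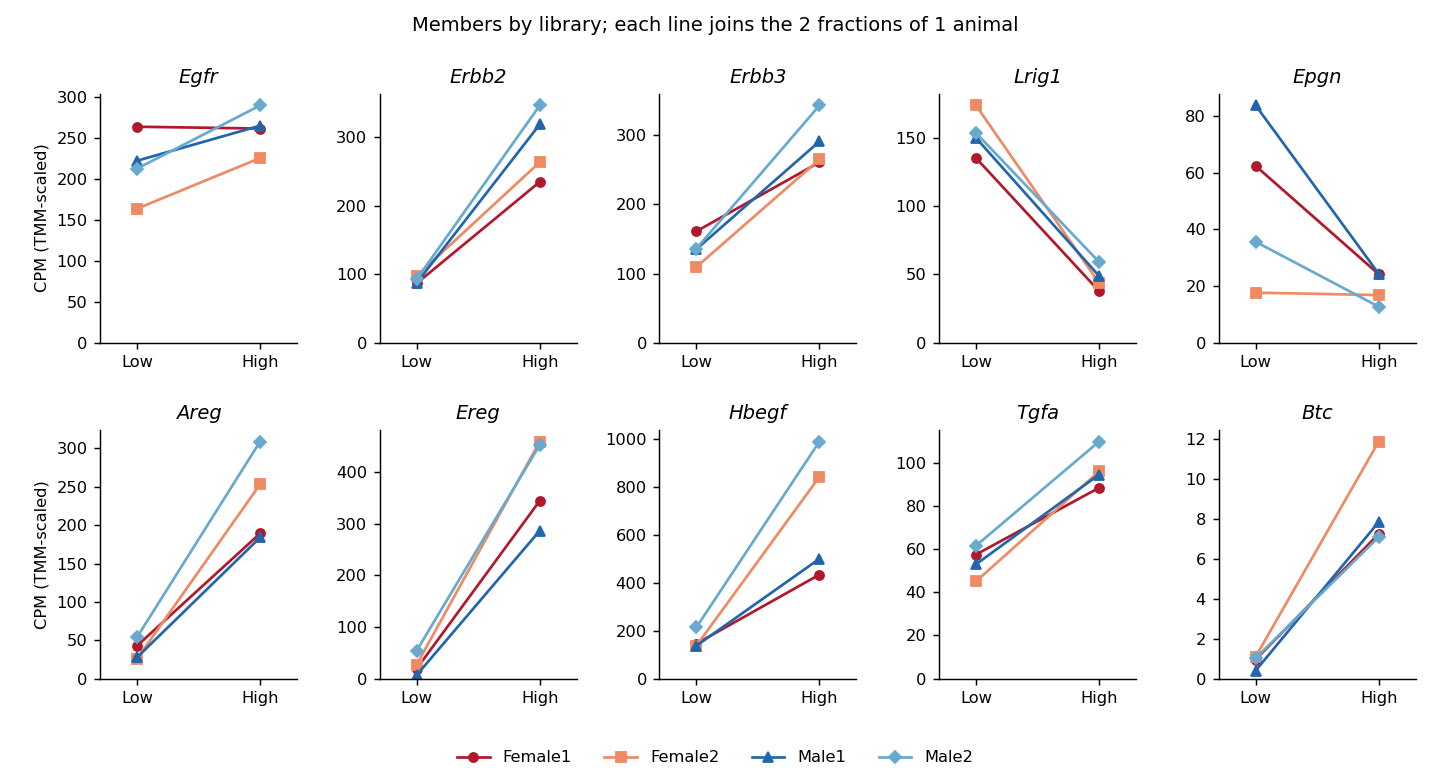
TMM-scaled CPM (vertical axes, from 0) of the 10 genes in the Cyto-ID Low and High library of each animal, joined by a line. Erbb2, Erbb3 and the ligands other than Epgn run upward in all 4 animals and Lrig1 downward in all 4, while Egfr is flat in Female1 and Epgn nearly flat in Female2.

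Of the receptors, Egfr differed least between the fractions. It stood at 264, 164, 222 and 213 CPM in Low and at 262, 226, 265 and 290 CPM in High. The fractions overlapped, and Female1 had almost the same level in both. Its fitted log2 difference was 0.27 (SE 0.17, adjusted p 0.237 in edgeR), with an approximate 95% interval of −0.07 to 0.61, and scaling by total counts turned it to −0.28. That scaling lowered the median log2 fold change of all tested genes by 0.55, from −0.09 to −0.64, and Egfr was above that median under both scalings.

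Erbb2, the partner receptor, had 86.6, 97.5, 87.2 and 92.6 CPM in Low and 235, 264, 319 and 347 CPM in High. The Low libraries were close together, and every High library lay above them. Erbb2 rose 3.17-fold, or by 1.66 log2 units (SE 0.15, adjusted p 2.79e-05 in edgeR). The neuregulin receptor Erbb3 had 161, 109, 135 and 136 CPM in Low and 261, 265, 291 and 343 CPM in High. Again all High libraries were above all Low libraries. It rose 2.13-fold, by 1.09 log2 units (SE 0.17, adjusted p 0.000461 in edgeR).

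The balance among the receptors was also taken within each library, where the scaling of libraries cancels. Counts of Erbb2 per count of Egfr were 0.328, 0.596, 0.392 and 0.436 in Low and 0.899, 1.17, 1.204 and 1.196 in High. The log2 ratio was higher in High by 1.38 in the mean and in 4 of 4 animals (exact two-sided permutation test over libraries, n = 4 each, p = 0.0286, the smallest that the design allows, and 0.0286 after adjustment over 3 ratios). Counts of Erbb3 per count of Egfr were 0.611, 0.669, 0.608 and 0.640 in Low and 0.999, 1.18, 1.10 and 1.18 in High. This ratio varied little between animals and was higher by 0.82 on the log2 scale in 4 of 4 animals (exact permutation p = 0.0286, adjusted 0.0286). A sign-flip test over the 4 animals cannot give a p below 0.125 and gave 0.125 for each ratio.

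Levels of different genes were compared per kilobase of exon. In Low the receptors overlapped one another, Erbb3 at 22.5 ± 3.5, Egfr at 19.0 ± 3.6 and Erbb2 at 17.5 ± 1.0 CPM per kilobase (SD, n = 4 each). In High, Erbb2 at 55.9 ± 9.8 and Erbb3 at 48.3 ± 6.3 CPM per kilobase overlapped each other and both lay above Egfr at 23.0 ± 2.3 (SD, n = 4 each). The share of Egfr in the summed receptor level per length was 28.1% to 34.9% in Low and 17.1% to 20.7% in High.

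**Figure D2:**
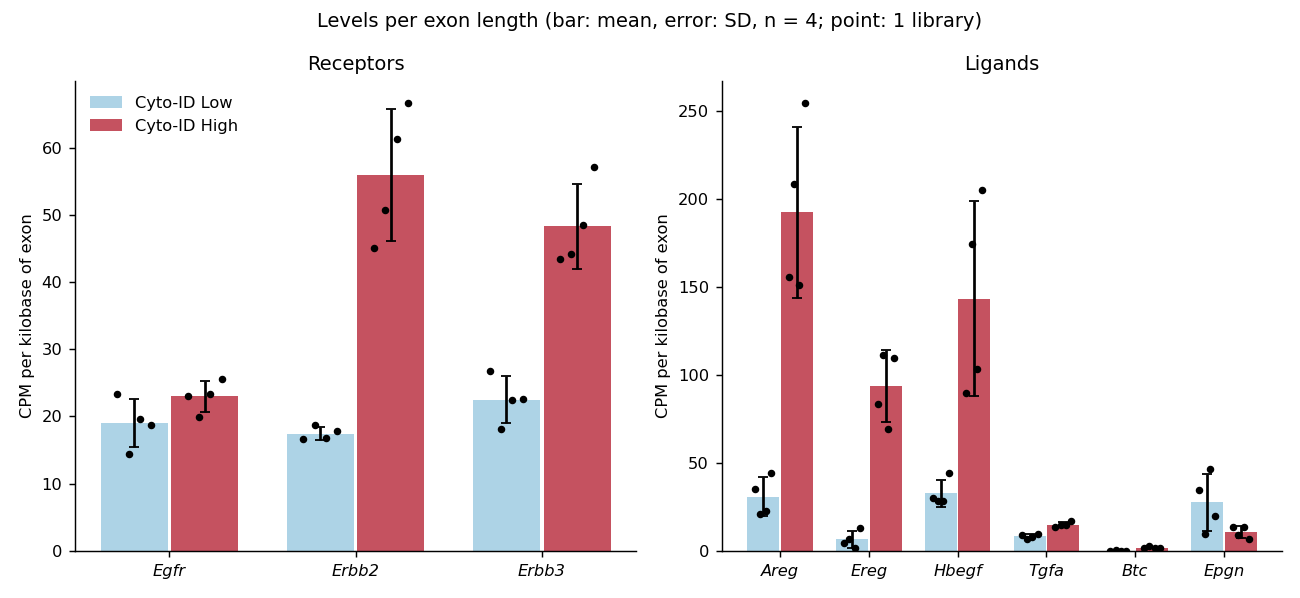
Level in CPM per kilobase of exon (vertical axes, linear from 0) of the 3 receptors and the 6 ligands in Cyto-ID Low (blue) and High (red), with bars for the mean, error bars for the SD (n = 4) and a point per library. In High all points of Erbb2 and Erbb3 lie above those of Egfr, and Areg, Hbegf and Ereg stand far above Tgfa, Epgn and Btc there.

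The ligands held the largest differences. Ereg encodes epiregulin, a ligand that acts at low affinity on Egfr. It had 19.3, 27.3, 6.90 and 54.2 CPM in Low and 345, 460, 287 and 453 CPM in High. The Low libraries spanned a wide range, yet the highest of them was far below the lowest High library. Ereg rose 14.5-fold, by 3.85 log2 units (SE 0.55, adjusted p 0.000314 in edgeR), and the difference per animal ran from 3.06 log2 CPM in Male2 to 5.36 in Male1. The change was 4.70 without the Low library of Male2 and 4.57 without both libraries of that animal. By fitted fold change it was number 124 from the top of all tested genes.

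Btc encodes betacellulin, which binds both Egfr and Erbb4. Its level was low, with 0.957, 1.10, 0.404 and 1.03 CPM in Low, where it rested on 13 to 40 counts, and 7.25, 11.9, 7.85 and 7.10 CPM in High. The groups did not overlap. Btc rose 9.78-fold, by 3.29 log2 units (SE 0.31, adjusted p 2.8e-05 in edgeR).

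Areg encodes amphiregulin, an autocrine growth factor of keratinocytes. It had 42.8, 25.7, 27.6 and 53.9 CPM in Low and 189, 253, 184 and 309 CPM in High. Every High library exceeded every Low library. Areg rose 6.25-fold, by 2.64 log2 units (SE 0.28, adjusted p 5.93e-05 in edgeR).

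Hbegf encodes heparin-binding EGF-like growth factor, which is also released in wound repair. Its CPM was 146, 137, 137 and 214 in Low and 435, 844, 501 and 991 in High. The groups were apart, and the High libraries of Female2 and Male2 were well above those of Female1 and Male1. Hbegf rose 4.38-fold, by 2.13 log2 units (SE 0.29, adjusted p 0.000231 in edgeR).

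Areg and Hbegf are known to be induced quickly when tissue is disturbed, and so the 15 genes of the dissociation stress list were read beside them. Their summed level was 18110, 19608, 22787 and 20123 CPM in Low and 12807, 22035, 16165 and 28380 CPM in High, so that the fractions overlapped. Of the 15 genes 2 were higher in High and 2 lower, and the list median was 0.14. Over all tested genes 23.4% were higher and 25.3% lower, and the median was −0.09. In High the summed level of the list and the level of Hbegf put the animals in the same order, Female1, Male1, Female2 and Male2. In Low the orders differed, the list being highest in Male1 and Hbegf in Male2, and Areg in High was lowest in Male1. The part of the list in the differences between animals was not tested.

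Tgfa, which encodes transforming growth factor alpha, changed least among the ligands that rose. It had 57.5, 45.1, 53.0 and 61.6 CPM in Low and 88.5, 96.1, 94.6 and 110 CPM in High. The groups did not overlap and the libraries of a fraction lay close together. Tgfa rose 1.79-fold, by 0.84 log2 units (SE 0.14, adjusted p 0.000696 in edgeR). Under total counts the change was 0.28 and did not pass (adjusted p 0.0582 in edgeR).

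Epgn, which encodes epigen, was the ligand that ran the other way. It had 62.4, 17.6, 83.8 and 35.6 CPM in Low and 24.1, 16.8, 24.3 and 12.7 CPM in High. The Low libraries spread widely, and the Low library of Female2 lay within the range of High. Epgn fell by 1.33 log2 units (SE 0.43, adjusted p 0.0276 in edgeR), and per animal by 1.37, 0.07, 1.78 and 1.49 log2 CPM. The change was −1.003 without Low Female1 (adjusted p 0.154), −0.94 without Low Male1 (0.102), −1.10 without High Male2 (0.0668), −1.29 without High Female2 (0.0738) and −1.43 without High Male1 (0.0507), so that the call was lost in each case. The call was also lost without both libraries of Female1 (−1.19, 0.0872), Male1 (−1.14, 0.0646) or Male2 (−1.19, 0.0501), and with limma-voom (−1.17, 0.0503). It held with the replicate block (−1.20, 0.00598).

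**Figure D3:**
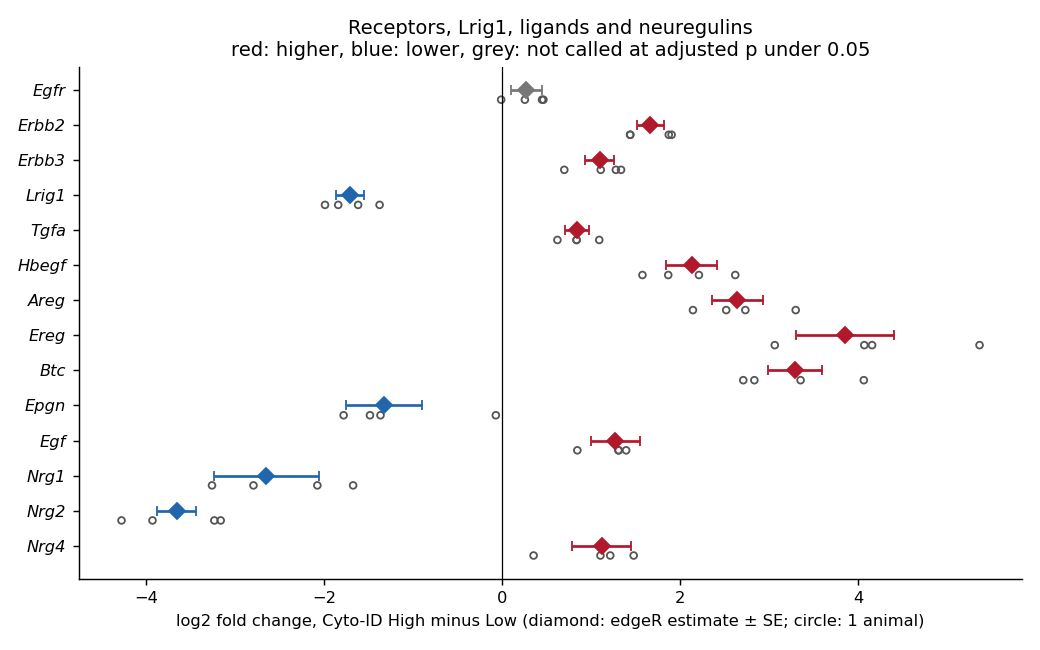
Log2 fold change of Cyto-ID High over Low (horizontal axis) for the receptors, Lrig1, the ligands and 3 neuregulins, with the edgeR estimate and its SE (diamond and bar) and the difference in each animal (circles). Ereg lies farthest to the right at 3.85 and Nrg2 farthest to the left at −3.66.

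Read per kilobase of exon, the leading ligands of Low were Hbegf at 32.8 ± 7.7, Areg at 30.9 ± 11 and Epgn at 27.6 ± 16.1 CPM per kilobase, which overlapped, followed by Tgfa at 8.37 ± 1.09 and Ereg at 6.52 ± 4.85, which overlapped each other (SD, n = 4 each). Ereg also overlapped Epgn, since its highest Low library, at 13.1, lay above the lowest of Epgn, at 9.75. Btc was lowest at 0.193 ± 0.070. In High, Areg at 192 ± 49, Hbegf at 143 ± 55 and Ereg at 93.6 ± 20.5 CPM per kilobase overlapped with their neighbours in the order, and Tgfa at 15.0 ± 1.4, Epgn at 10.8 ± 3.2 and Btc at 1.89 ± 0.50 followed without overlap (SD, n = 4 each). The share of Ereg in the summed ligand level went from 1.56% to 10.0% in the Low libraries to 18.5% to 23.4% in the High libraries. That of Epgn was 13.3% to 43.1% in Low and 1.18% to 3.79% in High.

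Epgn, Ereg, Areg and Btc are neighbours on mouse chromosome 5, where they are the 4 protein-coding genes within 375 kilobases (GRCm38.p6). Epgn, the gene that fell, is followed by Ereg after 39.4 kilobases, by Areg after a further 45.9 and by Btc after a further 209 kilobases. The gene order thus put the member that fell at the edge of the group and next to Ereg, the member with the largest rise. Promoter sequences, from 250 bases before to 50 bases after the start, were available from RefSeq for 7 of the 10 members, and Ereg, Erbb3 and Hbegf were not matched.

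Promoters of 3 of the neighbours and of Lrig1 are shown because they belong to genes that moved in opposite directions. Capitals mark every match, on either strand, to a cAMP response element, an AP-1 site, a TATA box or a GC box, and no matches overlapped in the sequences printed. They lie at chr5:91139349-91139648 on the plus strand for Areg, chr5:91402945-91403244 on the minus strand for Btc, chr5:91027267-91027566 on the plus strand for Epgn and chr6:94700096-94700395 on the minus strand for Lrig1.
Areg: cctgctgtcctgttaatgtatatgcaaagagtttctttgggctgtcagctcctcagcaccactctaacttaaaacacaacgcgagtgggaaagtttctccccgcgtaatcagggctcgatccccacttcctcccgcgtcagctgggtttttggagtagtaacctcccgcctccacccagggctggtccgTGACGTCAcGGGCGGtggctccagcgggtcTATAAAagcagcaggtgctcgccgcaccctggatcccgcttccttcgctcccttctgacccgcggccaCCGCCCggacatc
Btc: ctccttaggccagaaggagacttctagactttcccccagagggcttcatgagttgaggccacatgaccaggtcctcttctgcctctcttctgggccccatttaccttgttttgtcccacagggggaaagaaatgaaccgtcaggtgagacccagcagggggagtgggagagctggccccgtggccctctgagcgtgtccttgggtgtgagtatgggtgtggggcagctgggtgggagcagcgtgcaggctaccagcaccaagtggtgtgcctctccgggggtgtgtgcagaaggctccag
Epgn: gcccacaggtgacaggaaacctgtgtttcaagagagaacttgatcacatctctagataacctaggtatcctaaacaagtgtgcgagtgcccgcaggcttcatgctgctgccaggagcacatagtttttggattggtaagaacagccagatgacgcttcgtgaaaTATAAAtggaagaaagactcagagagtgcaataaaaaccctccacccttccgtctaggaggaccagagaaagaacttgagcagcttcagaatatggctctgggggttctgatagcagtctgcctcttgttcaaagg
Lrig1: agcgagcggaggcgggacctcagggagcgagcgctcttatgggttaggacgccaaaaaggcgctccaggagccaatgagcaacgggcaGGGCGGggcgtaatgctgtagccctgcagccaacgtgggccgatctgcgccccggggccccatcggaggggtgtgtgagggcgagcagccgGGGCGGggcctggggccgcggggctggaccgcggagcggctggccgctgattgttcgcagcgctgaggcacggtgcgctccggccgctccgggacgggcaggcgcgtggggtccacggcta
The cAMP response element, searched as TGACGTCA, was found in Areg alone among the 7 matched members, 61 bases before its start, and in 1.79% of 32851 promoters of this length. TATA boxes, searched as TATAAA, stood 31 bases before the start of Areg and 86 bases before that of Epgn, and 13.6% of all promoters held one. GC boxes, searched as GGGCGG, were in Areg, Egfr, Lrig1 and Tgfa, beside 35.7% of all promoters. The AP-1 site, searched as TGANTCA, was in none of the 7 matched members, beside 7.81% of all promoters. GC content was 47.3% for Epgn, 59.3% for Areg, 60.3% for Btc and 73.0% for Lrig1.

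Lrig1, the brake on the receptors, had 135, 174, 150 and 154 CPM in Low and 37.6, 43.6, 48.7 and 59.0 CPM in High. All 4 High libraries were below all Low libraries. Lrig1 fell by 1.71 log2 units (SE 0.16, adjusted p 3.09e-05 in edgeR), which made it 3.27-fold lower in High. The fall per animal was between 1.38 log2 CPM in Male2 and 1.99 in Female2. Counts of Lrig1 per count of Egfr were 0.512, 1.061, 0.675 and 0.722 in Low and 0.144, 0.193, 0.184 and 0.204 in High. The log2 ratio was lower by 2.00 in the mean and lower in 4 of 4 animals (exact permutation p = 0.0286, adjusted 0.0286).

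The genes whose pattern over the 8 libraries was nearest to that of a member were found by the mean absolute difference of centred log2 CPM among 10006 genes of at least 5 CPM. For Lrig1 these were Fgfr2, Tmem201 and Rnf43, which differed from it by 0.05, 0.07 and 0.07 log2 CPM on average. For Egfr they were Pag1, Zkscan6 and Bet1l (0.06 each), and for Areg they were Tom1, Mdfi and Prdm1 (0.12, 0.12 and 0.13). The libraries fell into the 2 fractions, which all these genes share.

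The rest of the receptor and ligand family moved in both directions. Of Erbb4, Egf, Nrg1, Nrg2, Nrg3 and Nrg4, 4 were tested, and 2 were lower and 2 higher in High. Over all tested genes 25.3% were lower and 23.4% higher. Erbb4, the other neuregulin receptor, and Nrg3 did not pass the filter on low counts, with at most 0.154 and 0.155 CPM in any library. The neuregulin Nrg2 fell from 37.7 ± 5.6 to 3.01 ± 0.97 CPM (SD, n = 4 each), by 3.66 log2 units (SE 0.22, adjusted p 1.27e-05 in edgeR). Nrg1 had 190, 24.2, 163 and 106 CPM in Low and 27.4, 7.53, 16.9 and 25.1 CPM in High. The Low library of Female2 was far below the other Low libraries and within the range of High, as it was for Epgn. Nrg1 fell by 2.65 (SE 0.59, adjusted p 0.0045 in edgeR). Both neuregulins are ligands of Erbb3, which rose.

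Egf, the founding ligand, rose from 3.87 ± 0.86 to 9.34 ± 3.21 CPM (SD, n = 4 each), by 1.27 log2 units (SE 0.28, adjusted p 0.0038 in edgeR), but not under total counts. Nrg4 stayed near 1 CPM, at 0.587 ± 0.131 in Low and 1.28 ± 0.31 in High (SD, n = 4 each, log2 fold change 1.12, adjusted p 0.0184 in edgeR). Its call was lost under total counts and without Low Female2, High Female2, High Male1 or Low Male2. It was also lost without both libraries of Female2 or of Male1.

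The counts of the 4 pathway lists that follow stand beside the 48.7% of all tested genes called, 23.4% higher and 25.3% lower, and the median of −0.09. Of 10 genes that act in ligand shedding 3 rose and 1 fell, with a median log2 fold change of 0.30 that was −0.26 under total counts. The principal sheddases Adam17 (0.29) and Adam10 (0.32) did not pass. Adam15, another metalloprotease, rose from 35.6 ± 4.2 to 165 ± 39 CPM (SD, n = 4 each), by 2.20 (SE 0.17, adjusted p 1.62e-05 in edgeR). Rhbdf2, an iRhom that escorts Adam17 to the surface, rose by 1.08 (SE 0.20, adjusted p 0.00142 in edgeR). Its relative Rhbdf1 rose by 1.06 (SE 0.15, adjusted p 0.000366 in edgeR). Timp3, an inhibitor of Adam17, fell by 2.42 (SE 0.40, adjusted p 0.00071 in edgeR).

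Among 21 genes that restrain or remove the receptors, 9 were lower, 3 higher and 9 not called, and the list median was −0.11 beside −0.09 for all tested genes. Spred2, an inhibitor of the Ras-ERK pathway, fell from 114 ± 19 to 9.60 ± 4.26 CPM (SD, n = 4 each), by 3.60 log2 units (SE 0.27, adjusted p 1.42e-05 in edgeR). The ubiquitin ligase Cblb fell by 2.66 (SE 0.19, adjusted p 1.39e-05 in edgeR). Its relative Cblc, by contrast, rose by 1.04 (SE 0.20, adjusted p 0.00177 in edgeR), and Spry1 rose by 0.93 (SE 0.27, adjusted p 0.0159 in edgeR), which did not hold under total counts or without High Female2. Under total counts 15 of the 21 were lower and 1 higher, beside 49.1% of all tested genes lower and 12.6% higher under that scaling.

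Of 30 adaptors and kinases downstream of the receptors, 13 were higher, 3 lower and 14 not called, with a median of 0.28. Under total counts 7 were higher and 13 lower and the median was −0.28, and a fit with a replicate block for the animal gave 6 lower. Gab1, a docking protein of the receptors, rose from 46.9 ± 8.6 to 193 ± 53 CPM (SD, n = 4 each), by 2.04 (SE 0.23, adjusted p 7.57e-05 in edgeR). The catalytic PI3K subunit Pik3cb rose by 1.56 (SE 0.16, adjusted p 4.07e-05 in edgeR). The regulatory subunit Pik3r1 fell by 0.88 (SE 0.19, adjusted p 0.00381 in edgeR), and the scaffold Ksr1 fell by 1.57 (SE 0.22, adjusted p 0.000284 in edgeR).

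Of 15 genes that respond to ERK 3 rose, 3 fell and 9 were not called, with a median of 0.10. Under total counts the median was −0.51, with 2 higher and 6 lower, and the replicate block gave 3 higher and 4 lower. Egr1, Fos, Junb, Ier2, Ier3 and Dusp1 are also in the dissociation stress list, so the 2 lists are not independent. The phosphatase gene Dusp5 rose from 55.7 ± 9.3 to 265 ± 79 CPM (SD, n = 4 each), by 2.26 (SE 0.23, adjusted p 4.57e-05 in edgeR), and Phlda1 rose by 1.59 (SE 0.39, adjusted p 0.00743 in edgeR). The transcription factor gene Etv5 fell by 2.81 (SE 0.38, adjusted p 0.000237 in edgeR) and the cyclin gene Ccnd1 fell by 1.63 (SE 0.19, adjusted p 9.53e-05 in edgeR). Etv5 fell from 11.8 ± 1.8 to 1.70 ± 1.04 CPM (SD, n = 4 each).

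**Figure D4:**
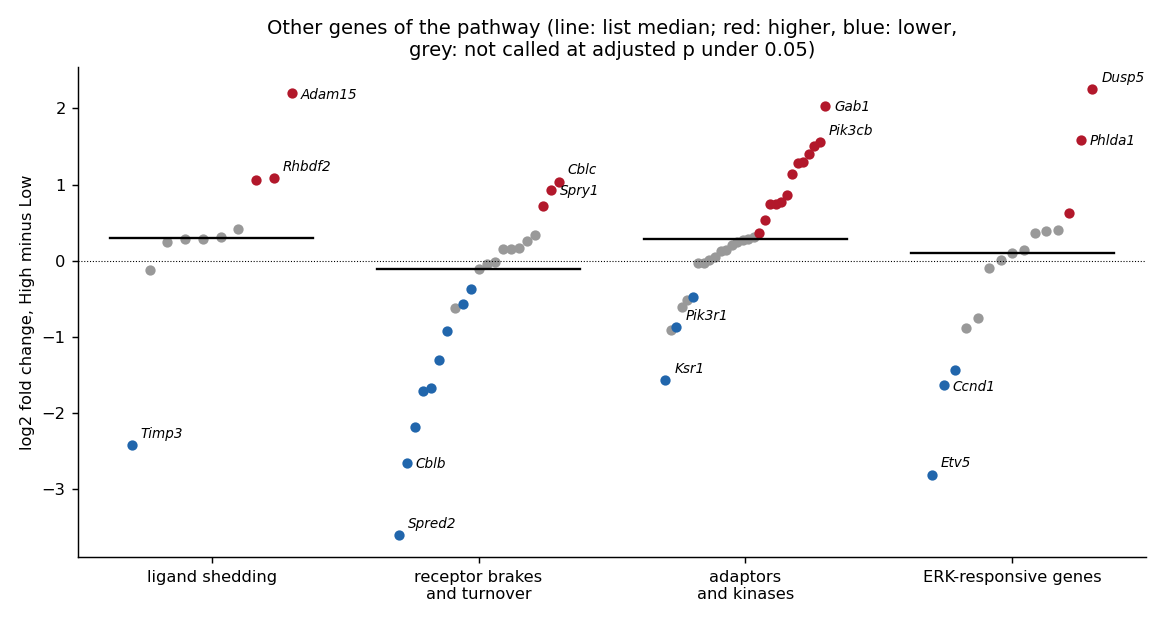
Log2 fold change of Cyto-ID High over Low (vertical axis) for the tested genes of 4 lists, sorted within each list, with the list median as a line. Genes past the threshold are red (higher) or blue (lower), and the medians lie between −0.11 and 0.30.

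The difference between the fractions was also compared between male and female animals. The interaction test called no member (quasi-likelihood test of edgeR, lowest unadjusted p 0.164 and adjusted p 1.00 for every member), beside 0% of all tested genes, 19 of which had an unadjusted p under 0.05. DESeq2 also called 0 genes, with 5 at an unadjusted p under 0.05. Both counts are far below the 0.05 share of genes that a calibrated test gives where nothing differs. The interaction tests were therefore conservative here, and the lack of calls carries little information. The largest male minus female differences were −0.72 (SE 0.87) for Epgn, −0.51 (SE 1.04) for Ereg and 0.45 (SE 0.30) for Erbb2 on the log2 scale. With 2 animals of each sex, these values do not show that the sexes were alike.

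Some members are also made by cells other than keratinocytes, and markers of those cells were present in both fractions. The 14 leukocyte markers summed to 78.5 to 126 CPM in Low and 7.72 to 129 CPM in High, and 9 markers of mast cells and type 2 innate lymphoid cells, Rora left aside, to 10.7 to 17.1 CPM in Low and 1.95 to 23.7 CPM in High. The calls of these marker lists stand beside the 23.4% of all tested genes called higher and the 25.3% called lower. In the leukocyte list the only gene called was Cd207, which was lower in High, and in the mast cell list none was. The High library of Male2 had the lowest sum in both lists and 309 CPM of Areg. The part of these cells in the level of Areg was not tested. Of 10 Schwann cell markers the only gene called was Erbb3 itself, and the other 9 summed to 161 to 191 CPM in Low and 139 to 197 CPM in High. Fibroblast markers, from cells that can make neuregulins, summed to 407 to 597 CPM in Low and 62.8 to 519 CPM in High. Of these 10 markers 2 fell, in 4 of 4 animals and without overlap, Dcn by 2.87 log2 units (adjusted p 9.15e-05 in edgeR) and Fbln1 by 1.93 (adjusted p 1.33e-05), and Nrg1 and Nrg2 were also lower in 4 of 4 animals. The other 8 markers were not called, overlapped between the fractions and were higher in High in 2 of 4 animals each. The part of fibroblasts in the fall of the neuregulins was not tested. With Male2 left out 7 members were higher, 1 lower and 2, Egfr and Epgn, not called. Gastric markers summed to 19.8 and 117 CPM in Low and High of Female2 and to at most 1.39 CPM elsewhere, and without Female2 the calls of the 10 members were as with it.

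Some values rest on shared sequence, since the strand setting of the counting is not given in the sources used here. In GENCODE M21 exons of Ereg share 141 bases with Gm19610 on the other strand, those of Lrig1 144 bases with Slc25a26, those of Tgfa 118 bases with Gm43917 and those of Erbb2 9 bases with Mien1. Reads of the overlapping bases cannot be assigned with certainty. Among the pathway genes named above, exons of Timp3 share 1733 bases with the other strand, those of Adam15 1263 and those of Ccnd1 1100. Overlaps of 177 to 727 bases concern Phlda1, Spry1, Dusp5, Egf, Nrg1, Nrg4, Adam17, Gab1 and Ksr1.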

How the data were processed

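RNA of 8 sorted libraries, 4 per Cyto-ID fraction, was analysed. The authors deposited whole-number counts per gene symbol. STAR 2.7.3, DESeq2 and GRCm38 are named per the submitters' processing notes, and the counting tool, annotation and strand setting are not given in the sources used here. Library totals were 26285150 to 29301054 counts.

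In R 4.3.3, genes were kept with filterByExpr (17344), scaled with edgeR's TMM factors and tested with edgeR 4.0.16 (glmQLFit, glmQLFTest, sex as a covariate), with Benjamini-Hochberg adjustment over all tested genes. A standard error is the log2 fold change divided by the root of F. Log2 CPM used a prior count of 2, and ratios of counts a pseudocount of 0.5. The fits were tested on simulated data. Alternatives were other scalings, filters and covariates, DESeq2 1.42.0, limma 3.58.1 (voom), a replicate block and left-out libraries. The labels do not state the number of mice pooled, if any, behind a named animal. The pairing follows the animal names, and deviations of same-named libraries correlated across genes at −0.02 to 0.43, other pairs at −0.37 to 0.35. No 2 libraries of a fraction agreed within sampling noise (chi-square per degree of freedom at least 17.7).

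Exon length is the union of GENCODE M21 exons. The members and lists were chosen with earlier results of these data known. Beside the members, the text names by rule the 2 genes that rose and the 2 that fell most in each pathway list (past the threshold, same sign in all 4 animals), and the 3 nearest patterns of Egfr, Lrig1 and Areg. Other names were chosen after their values were seen.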

Additional observations from a re-analysis of the deposited data

Results flagged for a closer look

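The levels of the 10 genes and the 3 ratios to Egfr were examined in each fraction for a library far from the other 3, in 26 groups of 4. Dixon's test at the 95% level picked 3, where chance alone picks about 1 group in 20. Hbegf in the Low library of Male2 was at 7.74 log2 CPM, or 214 CPM, where the other Low libraries had 137 to 146. Btc in the Low library of Male1 was at −1.08 log2 CPM, or 0.404 CPM from 13 counts, where the others had 0.957 to 1.10. The log2 ratio of Erbb2 to Egfr in the High library of Female1 was −0.15, a ratio of 0.899, where the others had 1.17 to 1.204. The cause was not tested.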

How the results depend on the processing

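For 9 of 15 results no alternative turned the sign or crossed the threshold, and 7 of the 10 members were among these 9. The number of genes called over all was 8440 and ran from 6563 to 10708 over the alternatives, and was 9336 with the replicate block (animal in place of sex). The block changed no call of a member. Under total counts Egfr reversed to −0.28 and Tgfa was 0.28 (adjusted p 0.0582 in edgeR). That scaling lowered the median of all genes by 0.55, and 20.5% in place of 48.0% of calls were higher. Epgn was −1.17 with limma-voom (adjusted p 0.0503) and −1.62 to −0.94 with libraries or whole animals left out. The cause was not tested. The sign-flip test on the paired animals left the ratios of Erbb2 (1.38), Erbb3 (0.82) and Lrig1 (which fell by 2.00) to Egfr at p = 0.125, the smallest that this exact test on 4 pairs can give. The number in the animal names as a covariate, added after the data were seen, changed no call of a member and gave 9451 called genes, 8439 of them shared with the 8440. Counts were low for Btc, with 13 to 40 in Low, and for Nrg4, with 16 to 23 in Low and 23 to 44 in High.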
